A study of Mus musculus with 12 samples.

Results

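Gpr171 and 9 receptors for extracellular nucleotides and adenosine were followed after repeated ozone in sorted alveolar macrophages, which patrol the surface of the air sacs and clear particles and debris from it. The 10 genes were chosen by symbol from the 55291 genes of the deposited table: Gpr171, the P2Y receptor genes of its chromosomal cluster (P2ry12, P2ry13 and P2ry14), and P2ry2, P2ry6, P2rx4, P2rx7, Adora2a and Adora2b. All 10 were found, and all 10 passed the filter on low values. The genes were chosen with values of these same mice in view, so their differences between ozone and filtered air are given as a description, without a test.

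Cells came from female C57BL6/NJ mice aged 8 to 11 weeks, with no transgene or other genetic change named in the labels. The ozone group (n = 6 mice) had breathed 0.8 ppm ozone for 4 h a day over 4 days, and the filtered-air group (n = 6) had breathed clean air on the same schedule. Lungs were taken 3 days after the last exposure, and alveolar macrophages were isolated by flow sorting in 2 batches, each with 3 mice of each group. Polyadenylated RNA was sequenced as paired reads of 50 bases from a stranded kit.

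Each value is a variance-stabilized expression level on a log2 scale, given relative to filtered air, whose 6 mice average 0 in every gene. The abundance of a gene is not kept in these values, so the receptors cannot be ranked by level, and changes of genes with few reads are compressed. The number of reads per mouse is unknown. Of 19633 genes kept, 834 had an adjusted p under 0.05 between ozone and filtered air in limma, which is 4.25% of those tested (2.41% higher and 1.84% lower after ozone). RNA integrity numbers ran from 9.2 to 9.7 after ozone and from 8.9 to 9.7 in filtered air. All 16 listed markers of alveolar macrophages, Siglecf, Itgax, Marco and Pparg among them, lay in every mouse above the minimum that mice without a read share. Their mean per mouse ran from -0.07 to 0.13 after ozone and from -0.05 to 0.07 in filtered air, and 4 of the 16 passed the threshold (Car4 and Chil3 higher, Krt79 and Adgre1 lower). Of 60 markers kept for other cell types, 2 passed, Cxcr2 higher and Epcam lower.

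Nucleotides that leave stressed or dying cells act on neighbouring cells as signals. ATP opens the P2X channels, which let calcium and sodium in; ATP, UTP, ADP, UDP and UDP-sugars act through the P2Y receptors, which couple to G proteins; and ectoenzymes break the nucleotides down to adenosine, which acts through its own G protein-coupled receptors and often restrains inflammation. GPR171 resembles the P2Y receptors in sequence but is described as a receptor for the peptide BigLEN, a product of the precursor encoded by Pcsk1n, and is known as an inhibitory receptor of T cells.

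On the mm10 build, Gpr171 lies on the reverse strand of chromosome 3 (chr3:59096448-59101821), inside the span of Med12l, a Mediator subunit gene on the forward strand (chr3:59005825-59318682). P2ry14 (chr3:59113855-59153618), P2ry13 (chr3:59207892-59210882) and P2ry12 (chr3:59216272-59262871) follow on the reverse strand within the same span. No annotated exon of Gpr171, P2ry14 or P2ry13 overlaps an exon of Med12l in GENCODE M21, and P2ry12 shares 9 exonic bases with it. Whether reads were counted by strand is not given in the sources used here. The other receptors form neighbouring pairs or stand alone. P2rx7 (chr5:122643911-122691432) and P2rx4 (chr5:122707544-122729738) lie on the forward strand, 16111 bases apart. P2ry6 (chr7:100937630-100974649) and P2ry2 (chr7:100996568-101012866) lie on the reverse strand, 21918 bases apart. In both pairs 0 protein-coding genes lie in the gap. Adora2a is at chr10:75316877-75334784 and Adora2b at chr11:62248984-62266453, both on the forward strand.

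Related receptors could share reads, so the coding sequences of the 10 genes were compared for the longest stretch that 2 of them share letter by letter. Among 45 pairs the longest stretch had 17 bases, shorter than a 50-base read, and the stretches that Gpr171 shares with the others had 10 to 13 bases. Untranslated regions were not compared. The pairs with the longest stretches of the P2Y and adenosine receptors and of Gpr171 are shown to let a reader see how alike the coding sequences are at their closest. Alignments with mismatches were not examined, so how far reads of these genes were shared was not tested. Each sequence runs 5′ to 3′ in coding direction, with the shared stretch in capitals, and was read from GENCODE M21 transcripts.
Gpr171 (chr3:59097623-59097665, reverse strand): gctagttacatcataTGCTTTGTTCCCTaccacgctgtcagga
P2ry12 (chr3:59217466-59217508, reverse strand): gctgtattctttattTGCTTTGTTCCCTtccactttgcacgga
P2ry2 (chr7:100998296-100998342, reverse strand): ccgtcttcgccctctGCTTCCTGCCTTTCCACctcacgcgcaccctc
P2ry6 (chr7:100938368-100938414, reverse strand): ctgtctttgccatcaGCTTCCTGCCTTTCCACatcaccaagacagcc
Adora2a (chr10:75326191-75326235, forward strand): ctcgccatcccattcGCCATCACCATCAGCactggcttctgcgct
Adora2b (chr11:62249276-62249320, forward strand): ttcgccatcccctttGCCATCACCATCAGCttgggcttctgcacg

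Gpr171 was low in every ozone mouse. Its values ran from -1.13 through a median of -0.91 to -0.48 after ozone, and from -0.27 through 0.06 to 0.21 in filtered air. The groups did not overlap, and the highest ozone value, that of ozone mouse 2, lay below the lowest filtered-air value. The mean after ozone was -0.87 ± 0.240 (SD, n = 6) against 0 ± 0.200 (SD, n = 6), a difference of -0.87 (SE 0.110). In batch 1 alone the difference was -0.81 and in batch 2 alone -0.93. Read as a plain log2 difference, this is a 1.83-fold lower level; how far the scale compresses the change of this gene cannot be read from the table. In RNA from a sorted population, fewer cells that express a gene and less of its RNA per cell cannot be told apart.

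T cells are known to express Gpr171, and all 12 T cell markers listed, Cd3e and Trac among them, lay above the shared minimum in every mouse. Their mean per mouse ran from -0.21 to 0.20 after ozone and from -0.24 to 0.28 in filtered air, and 0 of the 12 passed the threshold, with 9 of 12 lower by value. B cell markers were lower by value in 6 of 6 genes, of which 0 passed, and their mean ran from -0.43 to -0.07 after ozone against -0.25 to 0.38 in filtered air. NK cell markers were lower by value in 6 of 6 genes, with 0 passing and a mean from -0.14 to 0.00 against -0.13 to 0.23. The part of other cells in the difference of Gpr171 was not tested.

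**Figure D1:**
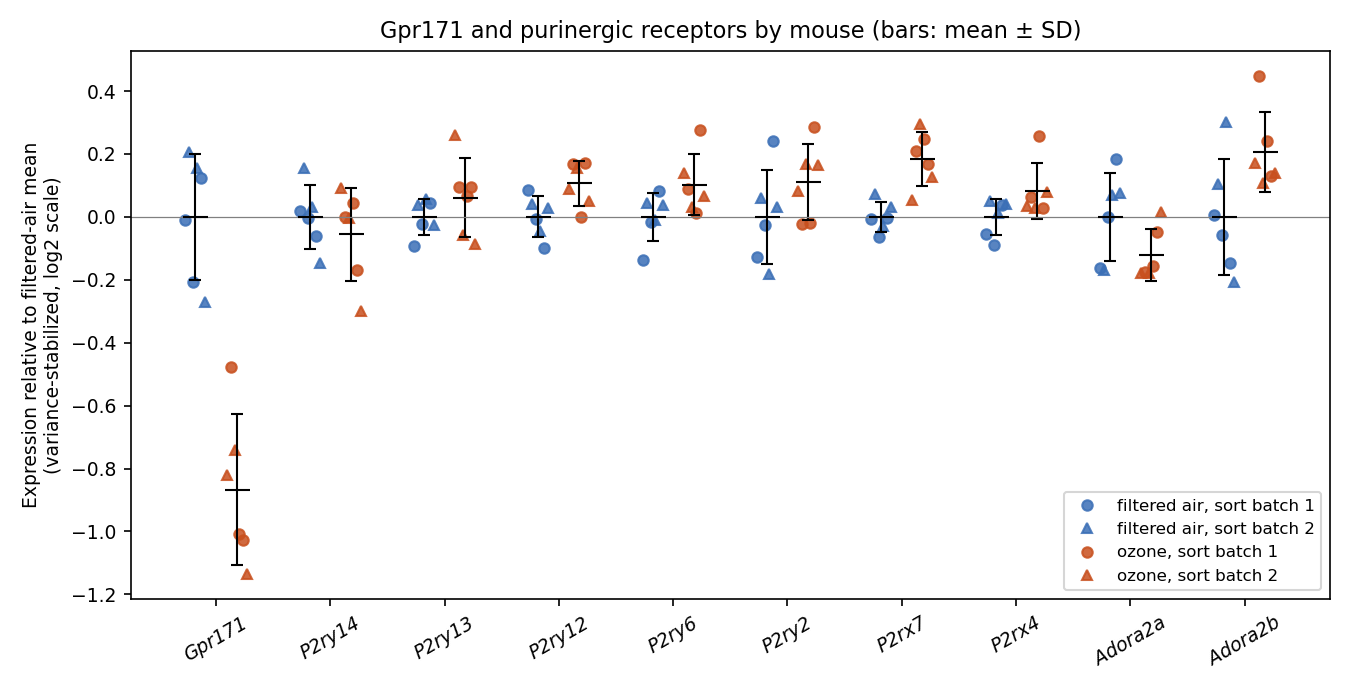
Variance-stabilized expression of each receptor gene relative to the filtered-air mean (vertical axis, log2 scale) in 6 filtered-air mice (blue) and 6 ozone mice (orange); circles and triangles are the sort batches, and black bars give mean ± SD. The ozone mice lie between -1.13 and -0.48 for Gpr171, below all filtered-air mice, while the groups of the other 9 genes overlap.

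The P2Y receptors beside Gpr171 had differences between -0.06 and 0.11. P2ry14, the receptor for UDP-glucose, whose gene lies 12033 bases from Gpr171 on the same strand, ran from -0.30 to 0.09 after ozone and from -0.15 to 0.16 in filtered air, with medians of 0.00 and 0.01. Its difference was -0.06 (SE 0.0677), and ozone mice 5 and 6 lay at -0.17 and -0.30 while the other 4 lay within the filtered-air range. The difference of P2ry14 was -0.03 without ozone mouse 5, 0.00 without ozone mouse 6 and -0.02 without filtered-air mouse 2. P2ry13, an ADP receptor, ran from -0.09 through 0.08 to 0.26 after ozone and from -0.09 through 0.01 to 0.06 in filtered air. The difference was 0.06 (SE 0.0548), and it was 0.02 without ozone mouse 1, the highest.

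P2ry12, the ADP receptor known from platelets and microglia, ran from 0.00 through 0.12 to 0.17 after ozone and from -0.10 through 0.01 to 0.08 in filtered air. Its difference was 0.11 (SE 0.0434), and 4 of 6 ozone mice lay above the highest filtered-air mouse. Med12l, the gene around the cluster, had a difference of 0.02 (SE 0.0604) that missed the threshold in limma (adjusted p = 0.918) and ran from -0.01 to 0.06 without single mice. Of 14 listed neighbours on chromosome 3, 10 were kept and 0 passed the threshold in either direction, beside 4.25% of all genes.

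**Figure D2:**
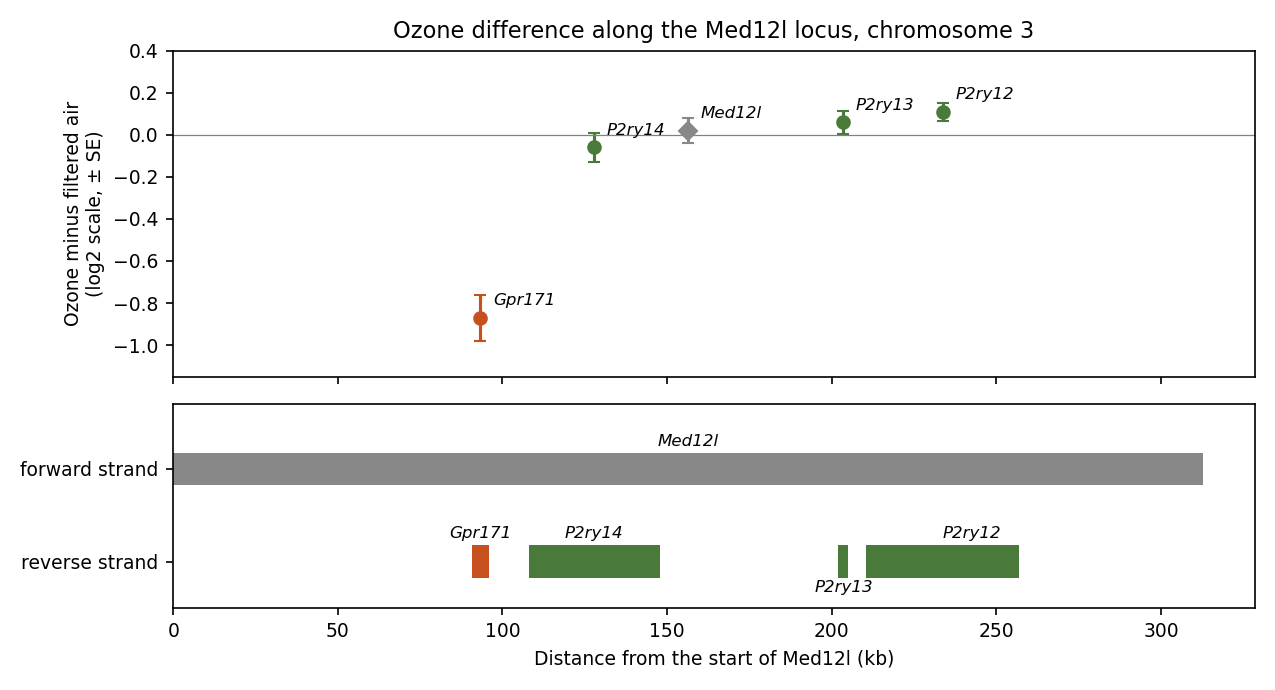
Upper panel: ozone minus filtered air (log2 scale, ± SE) for the genes kept along the Med12l locus; lower panel: extent of these genes by strand against the distance from the start of Med12l in kb. Gpr171 stands at -0.87, and P2ry14, P2ry13, P2ry12 and Med12l lie between -0.06 and 0.11.

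The 2 other P2Y receptors had small positive differences. P2ry6, the UDP receptor, ran from 0.01 through 0.08 to 0.28 after ozone and from -0.14 through 0.01 to 0.08 in filtered air, a difference of 0.10 (SE 0.0506). P2ry2, the receptor for ATP and UTP, ran from -0.02 through 0.12 to 0.29 after ozone and from -0.18 through 0.00 to 0.24 in filtered air, a difference of 0.11 (SE 0.0714). Ozone mouse 5 was the highest ozone mouse in both genes, and filtered-air mouse 5 was the highest filtered-air mouse in both. Without ozone mouse 5 the differences were 0.06 for P2ry6 and 0.07 for P2ry2, and without filtered-air mouse 4 that of P2ry2 was 0.07.

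P2rx7, the ATP-gated channel that triggers the NLRP3 inflammasome in macrophages, came next to Gpr171 among the 10 genes in how many ozone mice lay outside the filtered-air range. It ran from 0.05 through 0.19 to 0.29 after ozone and from -0.06 through -0.01 to 0.07 in filtered air. In 5 of 6 ozone mice it lay above every filtered-air mouse, with ozone mouse 1 inside their range. The mean was 0.18 ± 0.0862 (SD, n = 6) against 0 ± 0.0478 (SD, n = 6), a difference of 0.18 (SE 0.0441), with 0.23 in batch 1 and 0.13 in batch 2. Markers of monocytes and interstitial macrophages were higher by value in 6 of 7 genes, of which 0 passed, and their mean ran from -0.01 to 0.32 after ozone against -0.22 to 0.29; their part in this difference was not tested.

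P2rx4, its neighbour and the other P2X channel abundant in macrophages, ran from 0.03 through 0.05 to 0.26 after ozone and from -0.09 through 0.02 to 0.05 in filtered air. Its difference of 0.08 (SE 0.0461) rested on ozone mouse 4, and without that mouse it was 0.04.

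The 2 adenosine receptors differed in sign. Adora2b, the low-affinity receptor, ran from 0.11 through 0.16 to 0.45 after ozone and from -0.21 through -0.03 to 0.30 in filtered air, a difference of 0.21 (SE 0.0818). Only ozone mouse 2 exceeded the highest filtered-air mouse, which was filtered-air mouse 4. Adora2a, the high-affinity receptor, ran from -0.18 through -0.17 to 0.02 after ozone and from -0.17 through 0.04 to 0.18 in filtered air, a difference of -0.12 (SE 0.0628). It ran from -0.16 to -0.08 without single mice, with -0.08 without filtered-air mouse 5. Of the ozone mice, 4 lay between -0.18 and -0.16, where filtered-air mice 1 and 2 also lay.

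Counted over the whole table's fit, 2 of the 10 genes passed the threshold, Gpr171 on the lower side and P2rx7 on the higher side, beside 4.25% of all genes tested. Only for Gpr171, 1 of the 10, were the groups free of overlap, beside 3.53% of all genes (1.96% higher and 1.58% lower). By value 7 of 10 were higher and 3 lower, with a median difference of 0.092, beside 48.0% higher and a median of -0.0033 over all genes. The contrast that gives these counts also chose Gpr171, and nothing is read from them. The count moved with the fit. When each mouse was left out in turn, P2rx7 did not pass 8 of 12 times. Gpr171 did not pass within either batch alone, or with a variance trend, where its SE was 0.316. That trend follows each gene's mean over the 12 mice, which in these values holds the ozone difference and no abundance. The lost call of Gpr171 under the trend is therefore not read further. Adora2b passed when filtered-air mouse 4 was left out. These counts describe the fit and are no test of genes chosen on the same values.

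**Figure D3:**
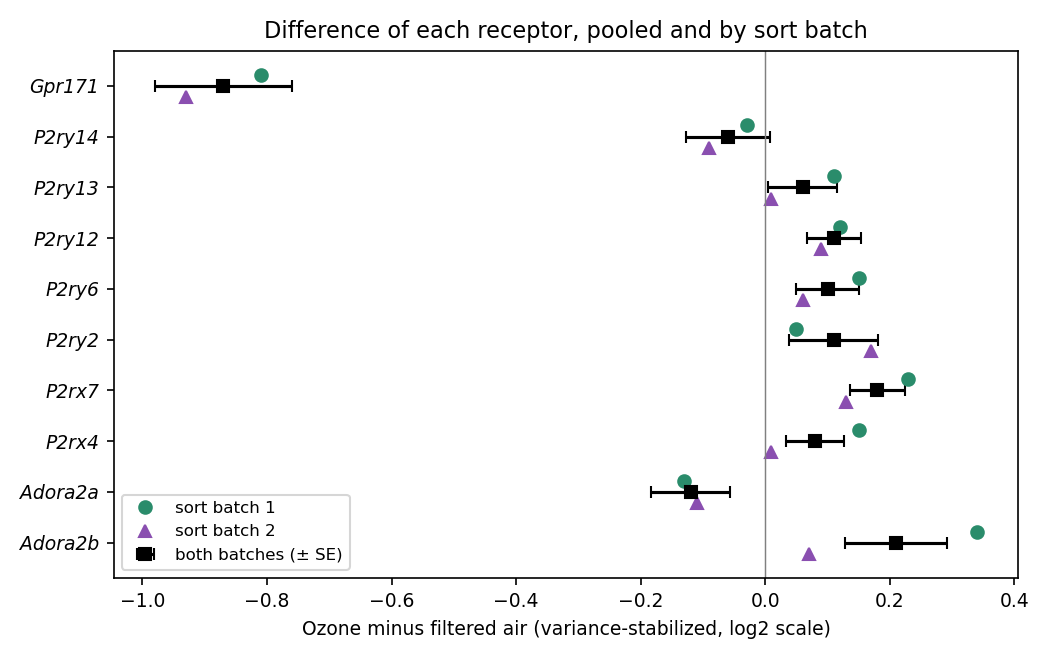
Ozone minus filtered air for each receptor gene (horizontal axis, log2 scale): black squares are both batches with ± SE, green circles sort batch 1 and purple triangles sort batch 2, each with 3 mice per group. All 10 genes have the same sign in both batches, and Adora2b is the farthest apart, at 0.34 and 0.07.

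The sort batches were compared next. All 10 differences had the same sign in both, and in limma's interaction test of batch and exposure 0 of the 10 passed the threshold, with 0 of 10 also at an unadjusted p under 0.05 and a smallest unadjusted p of 0.105, for Adora2b. Over all genes 0 of 19633 passed this test, a share of 0.0%, and 510, or 2.6%, had an unadjusted p under 0.05. For Adora2b the difference was 0.34 in batch 1 and 0.07 in batch 2, a gap of -0.27 (SE 0.154). For Gpr171 the gap was -0.12 (SE 0.228).

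The mouse-to-mouse variation that remains after the group and batch means are removed was compared next, as a description over the 12 mice. Among the 45 pairs of receptor genes the median Pearson r was 0.03, and 24 pairs lay above 0. The highest was that of the neighbours P2ry2 and P2ry6 (r = 0.68), and the neighbours P2rx4 and P2rx7 had r = 0.44. The neighbours P2ry12 and P2ry13, 5389 bases apart, had r = -0.16. Gpr171 went with Adora2b (r = 0.64) and with its neighbour P2ry14 (r = 0.62), less with P2ry13 (r = 0.35) and P2ry12 (r = 0.21). The lowest values were those of P2ry14 with Adora2a (r = -0.74) and of P2ry2 with Adora2b (r = -0.69). These 12 libraries share their sort batches, and these values, the highest and lowest of 45 pairs among them, are not read further. Whether they differ from each other was not tested.

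The gene most like Gpr171 was Cd80, a costimulatory ligand of T cells, with r = 0.98 over the 12 mice. Cd80 ran from -0.70 to -0.22 after ozone and from -0.15 to 0.22 in filtered air. Because the groups form separate clusters, the likeness was also taken within each: r = 0.94 (Spearman's rho 0.94) over the 6 ozone mice and r = 0.82 (rho 0.89) over the 6 filtered-air mice. Without the 2 mice farthest from the median of Gpr171 these became 0.89 and 0.51. Ozone mouse 2 was the highest and ozone mouse 6 the lowest ozone mouse in both genes. Cd80 was picked as the highest of 19632 genes, so no p is given. By the deviations from group and batch means its r was 0.89, and it ranked 7 among all genes, of which the highest reached 0.92.

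The next most alike over the 12 mice were D430041D05Rik, Irgc1, Frs2 and Cyth1, each with r = 0.95, and differences of -0.12, -0.30, -0.14 and -0.39. Frs2 encodes a docking protein of growth factor receptors, and Cyth1 encodes an exchange factor for ARF GTPases. The most opposite were Zfp362 and Rnf26 (r = -0.95), H2-T24 and Tbc1d2 (r = -0.94) and Psrc1 (r = -0.93). By deviations these 9 genes lay between 0.69 and 0.76 on the alike side and between -0.75 and -0.64 on the opposite side. Among the receptor genes, P2ry14 had the highest r with Gpr171 over the 12 mice (0.47) and P2rx7 the lowest (-0.68). By deviations these were 0.62 and 0.27, so the sign for P2rx7 turned once group and batch means were removed.

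**Figure D4:**
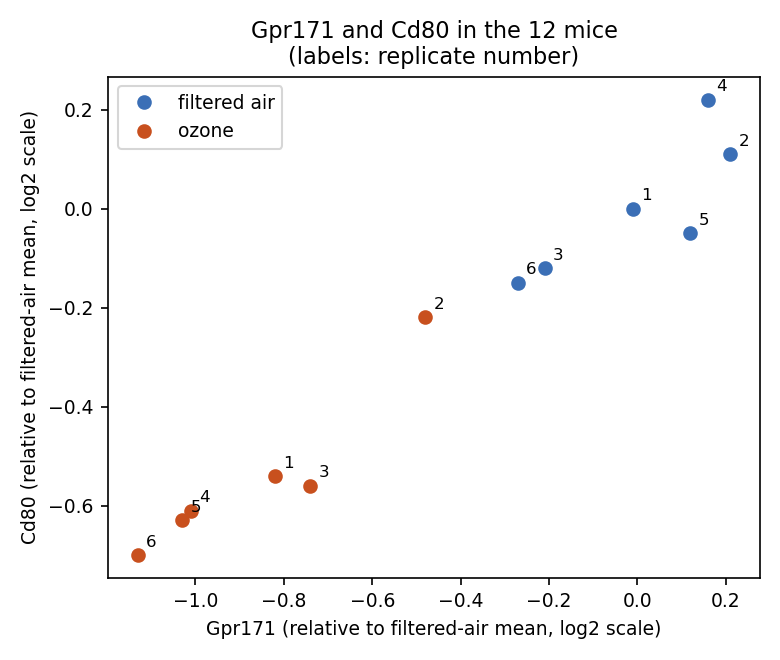
Cd80 (vertical axis) against Gpr171 (horizontal axis) in each mouse, both relative to the filtered-air mean on a log2 scale; blue, filtered air, orange, ozone, numbers are replicate numbers. The ozone mice lie at the lower left, ozone mouse 2 nearest to the filtered-air mice at -0.48 and -0.22.

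Other genes of nucleotide signalling, listed by their function or position, were tested in the same fit. The lists were drawn up with earlier results of these data known. Of 96 listed genes 83 were kept, and 4 of them passed the threshold, or 4.82% beside 4.25% of all genes; 3 were higher and 1 lower, and the median difference was -0.022 beside -0.0033 over all genes. All adjusted p-values for these genes are from limma with Benjamini-Hochberg adjustment over the 19633 genes.

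P2ry10, a P2Y-like receptor for lysophosphatidylserine known from lymphocytes, fell. It ran from -0.41 to -0.28 after ozone and from -0.19 to 0.27 in filtered air, without overlap. The difference was -0.35 (SE 0.0695, adjusted p = 0.0112), with 6 of 6 ozone mice below the whole filtered-air range. In limma P2ry10 kept its call in batch 1 alone (-0.40, adjusted p = 0.0452). It lost the call in batch 2 alone (-0.30, adjusted p = 0.482) and after quantile normalization (-0.28, adjusted p = 0.125). That normalization was run on values relative to filtered air, so it evened out their spread between mice, ozone differences included. The adjusted p of P2ry10 ran from 0.00363 to 0.482 over the alternative settings with no single mouse removed. Its spread was wider in filtered air (SD 0.176, n = 6) than after ozone (SD 0.0582, n = 6). B cell markers were lower by value beside it in 6 of 6 genes, of which 0 passed, with Cd79a at -0.29 (SE 0.0867, adjusted p = 0.0853 in limma); their part in this result was not tested. Gpr174, a related lysophosphatidylserine receptor of lymphocytes, had -0.16 (SE 0.0492, adjusted p = 0.0950), and 4 of 6 ozone mice lay below the filtered-air range. Gpr174 passed in limma without filtered-air mouse 2 (-0.19, adjusted p = 0.0470). Of the 4 P2Y receptors outside the chosen genes 3 were kept, and P2ry1, an ADP receptor, had 0.02 (SE 0.0613, adjusted p = 0.920).

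P2rx5, a P2X channel subunit, rose. It ran from 0.14 to 0.26 after ozone and from -0.07 to 0.08 in filtered air, a difference of 0.18 (SE 0.0372, adjusted p = 0.0118), with 6 of 6 ozone mice above the filtered-air range. P2rx5 lost its call in limma in batch 1 alone (0.20, adjusted p = 0.221) and in batch 2 alone (0.17, adjusted p = 0.377). It also lost it after quantile normalization (0.16, adjusted p = 0.0883), which has the limit given for P2ry10. Its adjusted p ran from 0.00529 to 0.377 over the alternative settings with no single mouse removed. Of 5 P2X genes outside the chosen ones 3 were kept, and 1 passed. P2rx2 and P2rx3 each lay above the shared minimum in 5 mice and were not kept. Among the adenosine receptors Adora3 had 0.05 (SE 0.0420, adjusted p = 0.617), and 0.03 to 0.07 without single mice, and Adora1 was not kept.

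Of 18 genes for ectonucleotidases and adenosine metabolism 16 were kept, and 2 passed as higher and 0 as lower. This is 12.5% of those kept, beside 4.25% of all genes (2.41% higher and 1.84% lower). Nothing is read from so few genes. Enpp4, an ectoenzyme that hydrolyses diadenosine polyphosphates, ran from 0.21 to 0.34 after ozone and from -0.06 to 0.10 in filtered air, a difference of 0.27 (SE 0.0385, adjusted p = 0.00181). Entpd6, a nucleoside diphosphatase of internal membranes, ran from 0.19 to 0.35 after ozone and from -0.11 to 0.12 in filtered air, a difference of 0.27 (SE 0.0451, adjusted p = 0.00439). For both genes 6 of 6 ozone mice lay above the whole filtered-air range. Within a single batch neither passed in limma: Enpp4 had 0.24 (adjusted p = 0.142) and 0.30 (adjusted p = 0.144), and Entpd6 had 0.21 (adjusted p = 0.188) and 0.32 (adjusted p = 0.169). The surface enzymes best known for making adenosine did not pass. Entpd1, which encodes CD39, had -0.09 (SE 0.0413, adjusted p = 0.271), and Nt5e, which encodes CD73, had 0.23 (SE 0.0962, adjusted p = 0.236).

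In the design with sort batch as the covariate, the remaining lists held 0 genes past the threshold in limma. Of 9 genes kept for nucleotide release and nucleoside transport, the smallest p was that of Panx1, the pannexin channel, with 0.21 (SE 0.0977, adjusted p = 0.291) and with 0.06 in batch 1 and 0.37 in batch 2. Of 19 genes for G proteins, adenylyl cyclases and phospholipases C beta, 16 were lower by value, while 48.0% of all genes were higher. Plcb2 had 0.31 (SE 0.0927, adjusted p = 0.0777 in limma). Plcb2 passed in limma without filtered-air mouse 5 (0.37, adjusted p = 0.0315), and also in the fits with a replicate block. Of 8 genes downstream of the P2X7 channel, Nlrp3 had -0.17 (SE 0.0531, adjusted p = 0.105) and Il1b 0.02 (SE 0.185, adjusted p = 0.972). Pcsk1n, the precursor gene of the GPR171 peptide, had 1 mouse above the shared minimum and was not kept. Gpr83, a receptor for another product of the same precursor, had 0.02 (SE 0.0531, adjusted p = 0.913), and -0.01 to 0.06 without single mice. Mbnl1, the chromosome 3 neighbour with the smallest p, had -0.17 (SE 0.0535, adjusted p = 0.0981) and passed in limma without filtered-air mouse 3 (-0.21, adjusted p = 0.0356). Over all 83 genes 23 had an unadjusted p under 0.05, a larger share than the 3283 of 19633, or 16.7%, over all genes. The lists were chosen with earlier results of these data known, and nothing is read from this.

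**Figure D5:**
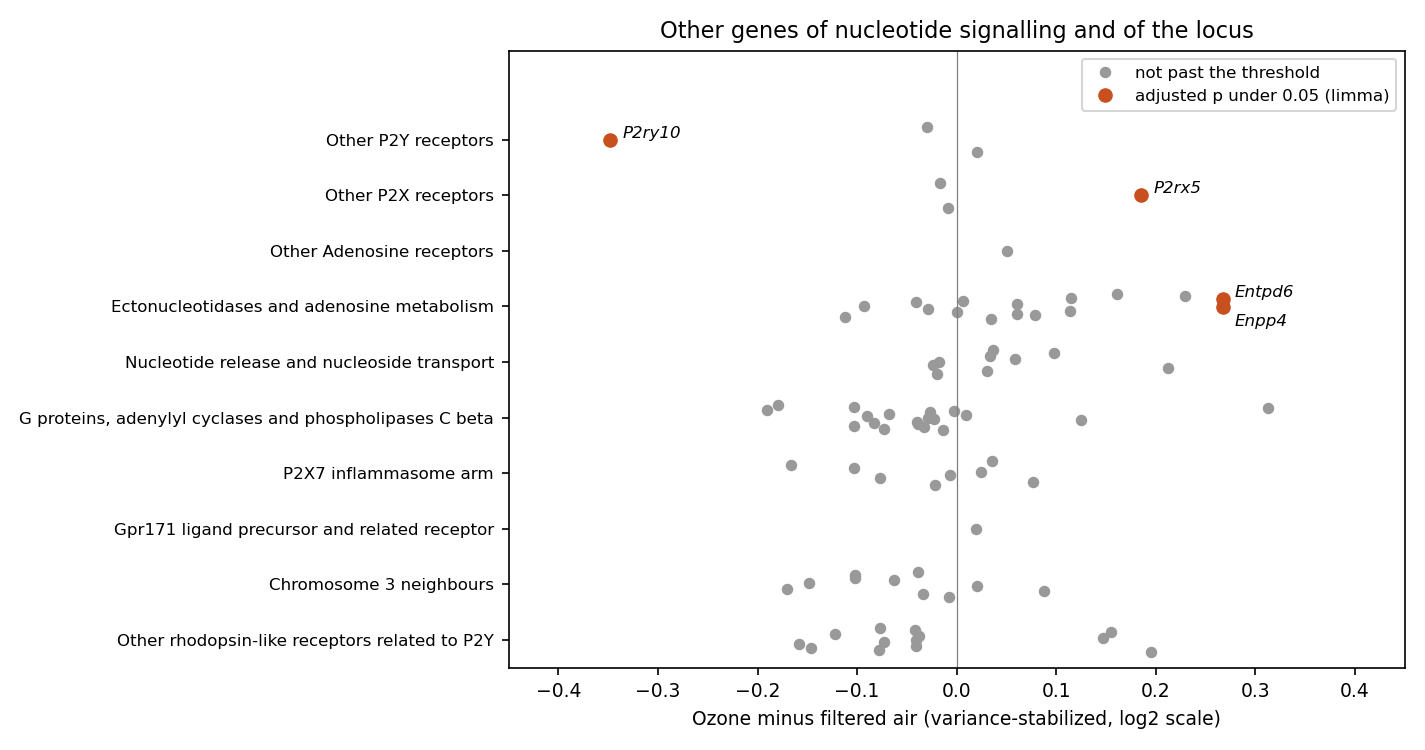
Ozone minus filtered air (horizontal axis, log2 scale) for each kept gene of the related lists (rows); orange marks an adjusted p under 0.05 in limma. P2ry10 lies at -0.35, P2rx5 at 0.18, and Enpp4 and Entpd6 at 0.27, while the other lists hold no marked gene.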

How the data were processed

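RNA-seq of sorted alveolar macrophages from 12 mice was used. The authors deposited 1 table of variance-stabilized, batch-corrected values on a log2 scale, per the name of the deposited file. Per the submitters' processing notes, the build was mm10, and the tools were cutadapt, STAR 2.7.7a, Salmon 1.5.2, DESeq2 1.26.0, R 3.6.0 and limma 3.42.2; their roles and the annotation are not given in the sources used here. All 12 columns matched a sample title, and 0 were left unmatched. Over all genes, the filtered-air mean lay within 2.38e-08 of 0, and the sort batch means lay within 5.3e-08 of each other.

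Within a batch, mice without a read share the lowest value. Genes were kept when 6 or more of 12 values exceeded a minimum shared by at least 2 mice of a batch (tolerance 1e-06), which left 19633 of 25444 genes that were not constant. A single mouse without a read cannot be seen this way.

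Ozone and filtered air were compared over all genes kept with limma 3.58.1 in R 4.3.3 (no variance trend), with sort batch as a covariate, two-sided, Benjamini-Hochberg adjustment and a threshold of 0.05. The fit was tested on simulated data. The members and lists were chosen with earlier results of these data known. Genes named were the 10 receptors, in each related list up to 6 genes past the threshold or else the gene with the smallest p, Med12l, and the 5 most and 5 least like Gpr171 by Pearson r. Entpd1, Nt5e, P2ry1, Il1b, the cell type markers given with a direction and the genes not kept were named after their values were seen. Some named items are not reported here. Alternatives were a variance trend, a robust fit, other covariates, a replicate block, quantile normalization, other filters, single batches and leaving out each mouse. Same-numbered mice are different animals. Nothing in the labels says that mice were pooled.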

Additional observations from a re-analysis of the deposited data

Results flagged for a closer look

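In the 20 combinations of receptor gene and group, 1 held a mouse far from the rest by Dixon's ratio, and about 1 is expected by chance at this level. P2rx4 in ozone mouse 4 lay at 0.26, above the other 5 ozone mice (ratio 0.779, above the critical value for 6 samples). Without this mouse the difference of P2rx4 was 0.04 (SE 0.0371) in place of 0.08.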

How the results depend on the processing

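The 230 differences of the 10 receptor genes under alternatives all kept their sign and moved by less than 1 SD. This is a weak check. A variance trend, a robust fit, other filters, a replicate block and dropping the batch covariate cannot change a difference in this balanced design. Leaving out 1 mouse can move it by only part of an SD. Gpr171 ran from -0.95 to -0.81 without single mice and from -0.93 to -0.69 under the other settings. Counts of calls in limma moved more. Quantile normalization gave 171 genes over the table, 1 of the 10 receptor genes (Gpr171) and 2 of the related genes. It was run on values relative to filtered air, so it evened out the spread of those values between mice, ozone differences included. It did not even out expression levels. Batch 1 alone gave 90, 0 and 1, and batch 2 alone 0, 0 and 0, with 1800 genes, 1 receptor gene and 13 related genes at an unadjusted p under 0.05; both use 3 mice against 3. The variance trend left 1 receptor gene called (P2rx7), but here it follows a mean that holds the ozone difference and no abundance. Without single mice 538 to 751 genes (lowest without filtered-air mouse 1), 1 to 2 receptor genes and 4 to 6 related genes were called. P2rx7 lost its call without filtered-air mice 1, 3, 4 or 5 or ozone mice 2, 3, 4 or 5. The cause was not tested. Replicate numbers occur in both groups but mark different animals. Deviations of same-numbered mice had r from -0.003 to 0.284, with 4 of 6 over 0.1, and 3 of 6 ozone mice were closest to their own number. With the replicate block in place of batch 1219 genes, 3 receptor genes and 7 related genes were called; with the block beside batch, added after seeing the data, 853, 1 and 6. In limma, Plcb2 passed with the block in place of batch (adjusted p = 0.00693) and beside it (adjusted p = 0.0139), Gpr174 with the block in place of batch (adjusted p = 0.0449), and Adora2b did so too, while P2rx7 lost its call with the block beside batch.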
